A study of Danio rerio with 3 samples.

Results

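Crystallins are the water-soluble proteins that fill the fibre cells of the vertebrate lens and give it its refractive power. Alpha crystallins belong to the small heat-shock proteins and act as chaperones, while beta and gamma crystallins are structural proteins that share a fold. The gamma M crystallins are a large family of fish, rich in methionine, and they pack the dense spherical lens of an aquatic eye. The crystallin genes were chosen by symbol: every identifier whose zebrafish gene name begins with crya, cryb or cryg. The naming table holds 60 such identifiers, and 53 of them are among the 27882 gene identifiers measured, while 7 have no row in the gene tables. A minimum of 20 reads summed over the libraries was met by 42 of the 53: 1 of 2 alpha, 12 of 13 beta, 25 of 30 gamma M and 1 of 5 other gamma crystallins, and 3 of 3 genes whose names begin with crybg.

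The study sequenced RNA of whole zebrafish larvae of the AB background at 3 days post-fertilization, in 3 libraries with 1 library per group. The HRAS larvae carried Tg(fli1ep:GAL4FF)ubs3, a GAL4 driver under a promoter active in endothelium, together with Tg(UAS:eGFP-HRASV12)io006, which encodes an oncogenic HRAS fused to eGFP. The NICD larvae paired that driver with tg(UAS:NICD)kca3, which encodes the active intracellular domain of a Notch receptor. The control larvae were wild type and no driver is named for them, so an effect of the driver and an effect of either transgene cannot be told apart against this control. The sources used here do not give the number of larvae pooled.

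The libraries held 41105619 (HRAS), 21944303 (NICD) and 26384466 (control) corrected reads, which are the unique reads of a gene plus the authors' share of its non-unique reads. With 1 library in each group no difference has a replicate check, no p-value is given, and each comparison is between these libraries rather than between the conditions. Ratios were taken after TMM scaling. Brackets after a ratio hold an exact 95% interval from the binomial split of the reads. It reflects counting error alone and leaves out the spread between larvae. A gene was called higher or lower when the pair of libraries held 50 or more of its reads, and when it differed at least 2-fold and had an interval that excluded 1. Levels are given as the authors' RPKM, which divide reads by transcript length and library size, so that genes can be compared per length.

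Transcripts of lens fibre cells were measured in all 3 libraries. Of the lens fibre markers, CRYBA4 reached 163 RPKM in HRAS, 375 RPKM in NICD and 232 RPKM in the control, and CRYAA, CRYBB1, BFSP1 and the genes named MIP and LIM2 were also above 0 in every library. The gamma M crystallins made up most of the crystallin RNA in each library, and the most abundant members were among the more abundant transcripts of the larva. The highest crystallin was crygm2d4 in HRAS, at 463 RPKM and rank 180 among all genes. It was also the highest in NICD, at 430 RPKM and rank 180, while crygm2d17 led in the control, at 725 RPKM and rank 131. Of the 500 most abundant genes, 19 were crystallins in HRAS, 19 in NICD and 22 in the control. The crystallin RNA was spread over many genes, since 8 members in HRAS, 9 in NICD and 8 in the control were needed to reach 50% of the summed crystallin RPKM.

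**Figure D1:**
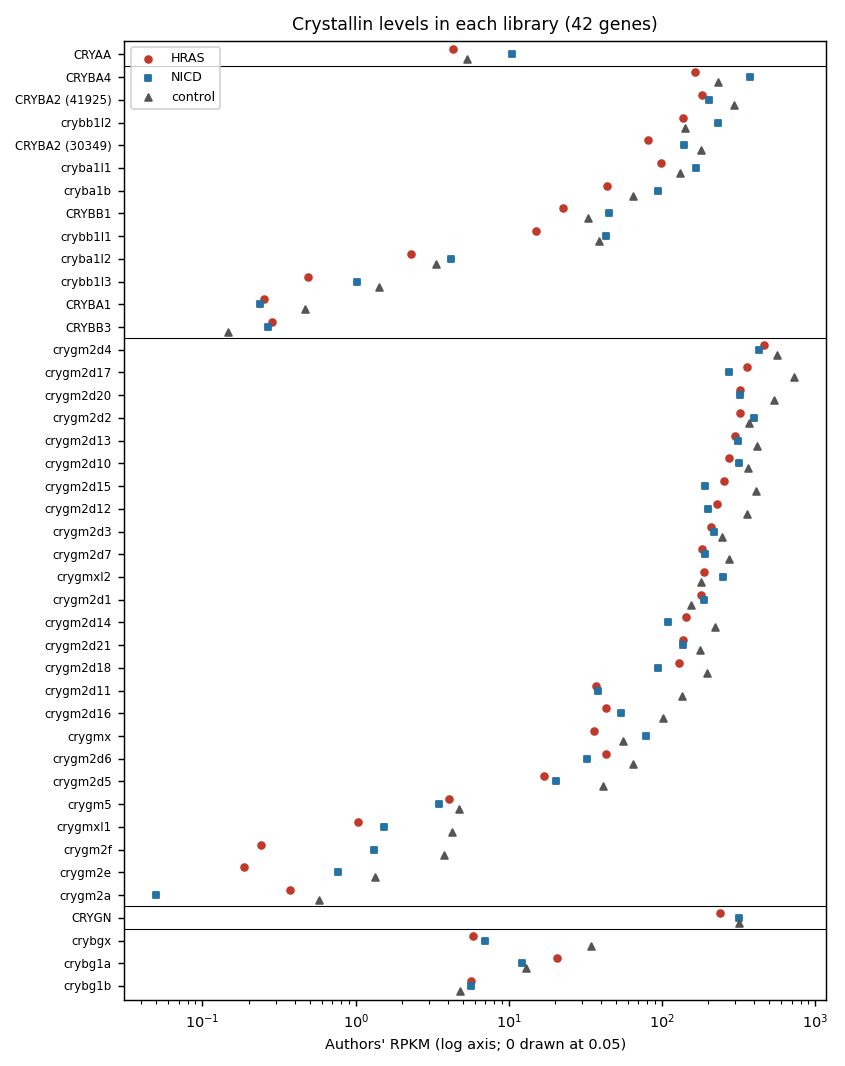
Level of each of the 42 crystallin genes with at least 20 reads, as the authors' RPKM on a log axis, with 1 point per library (HRAS, NICD, control) and horizontal lines between alpha, beta, gamma M, other gamma and crybg genes. Levels ran from under 1 RPKM to 725 RPKM for crygm2d17 in the control, and in most gamma M genes the control point lies furthest to the right.

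At the lower end, 11 members stayed under 20 reads and were not compared. Among them, crygs4, crygm1 and crygm6 had 0 corrected reads in all libraries, and the single measured identifier named CRYAB, the second alpha crystallin, had 3 reads in HRAS, 1 in NICD and 0 in the control. The members nearest the minimum were crygm2a, with 10 reads in HRAS, 0 in NICD and 10 in the control, 20 in all, and CRYBB3, with 22. Just under it lay crygm3, crygm7 and CRYGS (ENSDARG00000042992), each with 15. Some members passed the minimum mainly through the control, such as crygm2e, with 5 reads in HRAS, 11 in NICD and 23 in the control, so counts over the members that passed are descriptions of these libraries.

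Summed over all 53 genes, crystallin reads were 167845 in HRAS, 101613 in NICD and 152696 in the control. As a share of the library they were 0.408% [0.406 to 0.41] in HRAS, 0.463% [0.46 to 0.466] in NICD and 0.579% [0.576 to 0.582] in the control, with exact (Clopper-Pearson) binomial intervals. The sum was thus lowest in HRAS and highest in the control. After scaling, the sum in HRAS stood at 0.702 [0.697 to 0.706] of the control, and that in NICD at 0.791 [0.785 to 0.798]. In RNA of whole larvae, fewer lens cells and less crystallin RNA per cell cannot be told apart.

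The crystallin groups did not move alike in the NICD library. Gamma M genes summed to 3863 RPKM in HRAS, 3856 RPKM in NICD and 5602 RPKM in the control, so both transgenic libraries lay at a similar lower level. Beta genes summed to 745.4 RPKM in HRAS, 1301 RPKM in NICD and 1118 RPKM in the control, with NICD highest. As a share of all crystallin RPKM, beta genes made up 15.3% in HRAS, 23.6% in NICD and 15.8% in the control, and gamma M genes 79.1% in HRAS, 70% in NICD and 79% in the control. The summed beta level was 0.193 of the summed gamma M level in HRAS, 0.337 in NICD and 0.2 in the control. On unique reads the same ratio, as reads rather than RPKM, was 0.435 in HRAS, 0.979 in NICD and 0.391 in the control, again with NICD apart from the other two. The unique gamma M reads summed to 0.615 [0.604 to 0.627] of the control in HRAS and 0.522 [0.509 to 0.534] in NICD, further from 1 than the corrected reads, at 0.697 [0.692 to 0.703] in HRAS and 0.701 [0.694 to 0.707] in NICD. The beta reads summed to 0.668 [0.656 to 0.679] of the control in HRAS and 1.13 [1.11 to 1.15] in NICD, and their unique reads to 0.684 [0.664 to 0.704] in HRAS and 1.3 [1.27 to 1.34] in NICD. Most unique beta reads came from few genes: of 9761 in NICD, CRYBA4 held 4072 and cryba1l1 3241. Most unique gamma M reads also came from few genes. Of 22613 in the control, crygm2d17 held 6305, crygm2d12 3780, crygm2d15 2899, crygm2d14 2484 and crygm2d4 2438. Of 9975 in NICD, these genes held 1577, 1744, 1068, 968 and 1569 in that order. The unique sums and their beta to gamma M ratio thus rest mainly on these genes and do not check the groups as a whole.

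**Figure D2:**
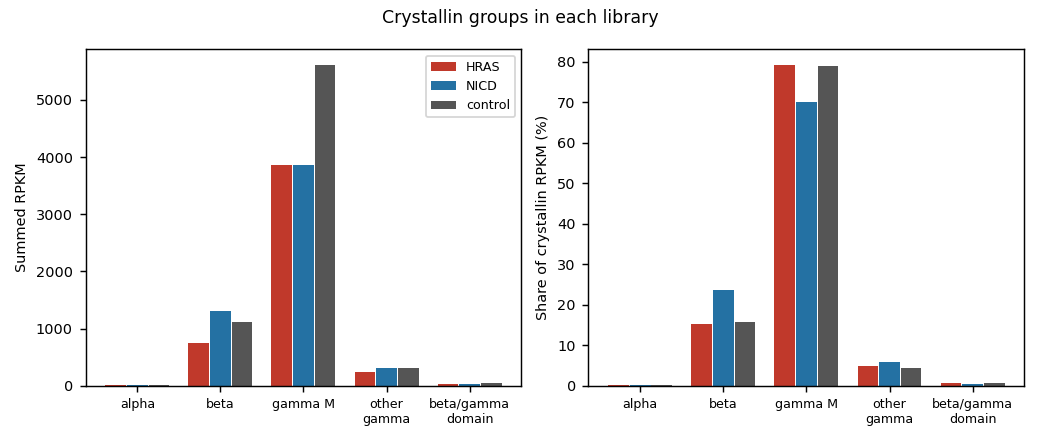
Summed RPKM of each crystallin group (left axis panel, RPKM) and its share of all crystallin RPKM (right axis panel, %), with 1 bar per library in the order HRAS, NICD, control and no error bars, since each group is 1 library. Gamma M sums were 3863, 3856 and 5602 RPKM in that order, while the beta sum was highest in NICD, at 1301 RPKM.

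The first comparison asked how the larvae with the HRASV12 transgene differed from wild type. Of the 38 crystallin genes with at least 50 reads in the pair, 10 were called lower (26.3%) and 0 higher in HRAS. Among all 20873 genes tested, 4.14% were called lower and 6.09% higher. The median log2 ratio over the 42 members was -0.60, against 0.006 over all 23330 genes with at least 20 reads, and 37 of the 42 lay below 1. The second comparison asked the same for larvae with the NICD transgene. There 10 of 38 were called lower (26.3%) and 0 higher, against 3.12% lower and 3.56% higher of all 20061 genes tested. The median was -0.42, against 0.039 over all genes, and 28 of 42 members lay below 1. Both comparisons use the same control library, so the values are given side by side and their likeness is not a result. With crygm2a, which had 0 reads in NICD, set to the limit that a floor of 3 reads allows, the medians were the same to 2 decimals.

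**Figure D3:**
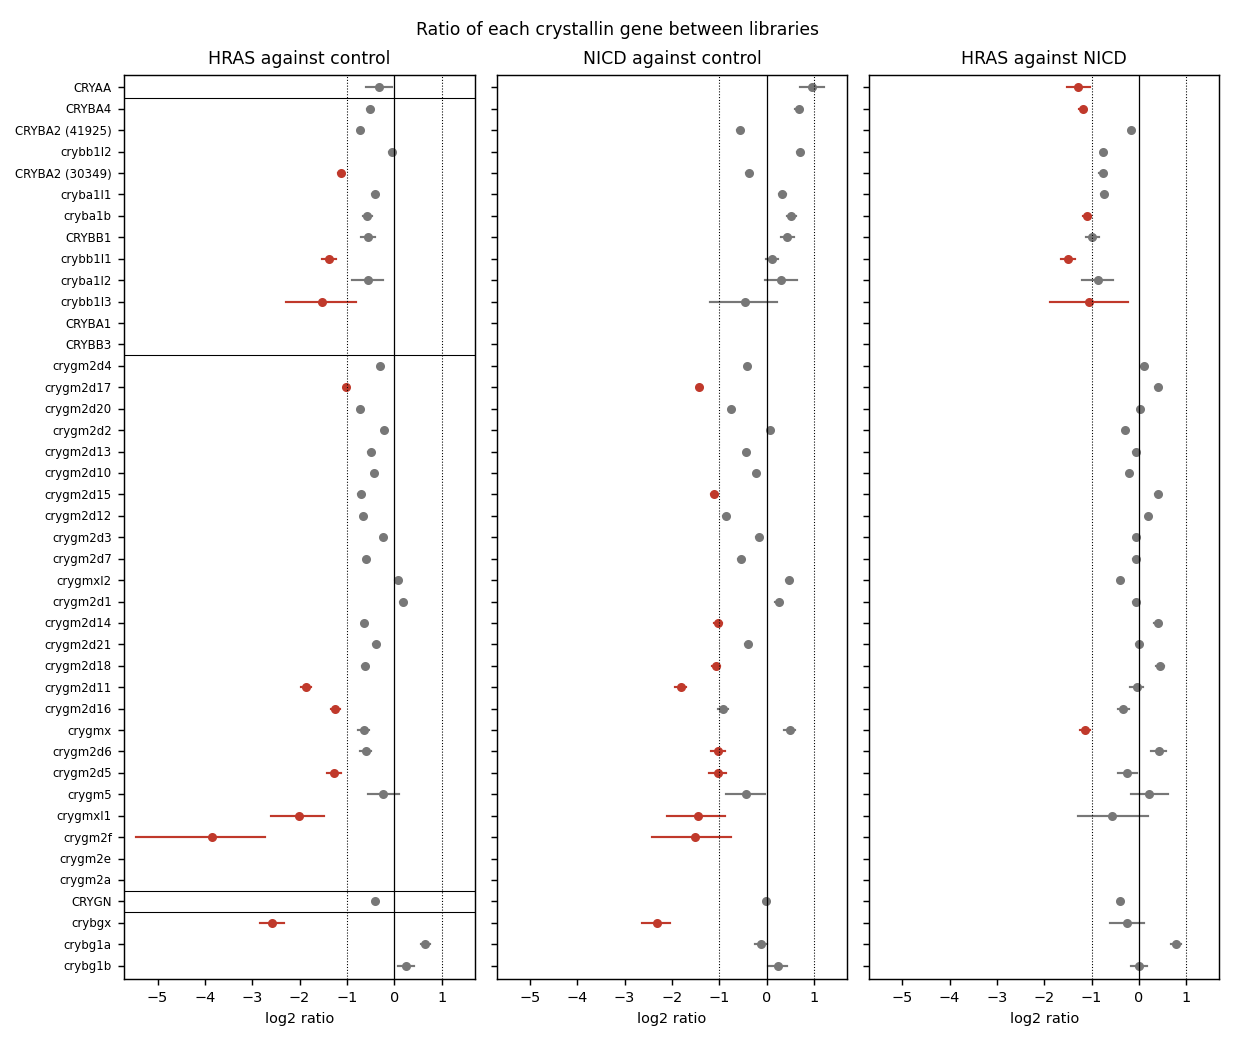
The log2 ratio of each crystallin gene with at least 50 reads in the pair, in the comparisons HRAS against control, NICD against control and HRAS against NICD, with exact 95% counting intervals as horizontal bars. Red marks a gene called by the 2-fold rule, dotted lines mark 2-fold, and genes run from alpha at the top through beta and gamma M to the crybg genes. Beta genes lie mostly right of 0 in the NICD panel and left of 0 in the HRAS panel.

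Alpha crystallin A, the product of CRYAA, is a chaperone that keeps other lens proteins soluble. CRYAA had 4.29 RPKM in HRAS, 10.5 RPKM in NICD and 5.35 RPKM in the control, far under the leading beta and gamma genes in all libraries. It stood at 0.797 [0.66 to 0.966] of its control level in HRAS and at 1.94 [1.62 to 2.32] in NICD, and neither was called. Between the transgenic libraries it was called lower in HRAS, at 0.412 [0.348 to 0.487] of the NICD level, on 250 reads in HRAS and 326 in NICD, all of them unique.

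Beta crystallins form oligomers in the lens, and their names divide them into acidic A and basic B chains. Of the 10 beta genes with 50 reads in the pair, 3 were called lower in HRAS against control and none higher, and in NICD against control none was called in either direction. Over all genes tested, 4.14% were called lower in HRAS against control and 3.12% in NICD against control. The medians over the 12 beta genes were -0.57 in HRAS and 0.32 in NICD on the log2 scale. Over the 8 with at least 50 unique reads in the pair, the unique-read medians were -0.86 in HRAS and 0.15 in NICD. On these reads all 8 lay below 1 in HRAS, while in NICD 4 lay above 1 and 4 below. The gene CRYBA4 had 163 RPKM in HRAS, 375 RPKM in NICD and 232 RPKM in the control. It stood at 0.701 [0.667 to 0.736] of the control in HRAS and at 1.6 [1.52 to 1.68] in NICD, and all of its reads were unique. The gene crybb1l2, with 137 RPKM in HRAS, 232 RPKM in NICD and 141 RPKM in the control, differed little from the control in HRAS, at 0.966 [0.931 to 1], and stood at 1.63 [1.57 to 1.69] in NICD. The genes cryba1b, CRYBB1 and cryba1l1 also lay below the control in HRAS and above it in NICD, at 1.44, 1.35 and 1.26 of the control in NICD, all short of 2-fold. On unique reads cryba1b and cryba1l1 stayed on the same sides. CRYBB1 had only 22 unique reads in HRAS, 15 in NICD and 15 in the control. On these it stood at 0.933 [0.468 to 1.95] in HRAS and 1.18 [0.539 to 2.6] in NICD, and both intervals include 1.

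Not all beta genes were higher in NICD than in the control. Both identifiers named CRYBA2 were lower in both transgenic libraries. CRYBA2 (ENSDARG00000030349) had 81.3 RPKM in HRAS, 139 RPKM in NICD and 178 RPKM in the control, and it was called lower in HRAS, at 0.455 [0.436 to 0.475]. CRYBA2 (ENSDARG00000041925) had 181 RPKM in HRAS, 203 RPKM in NICD and 296 RPKM in the control, and on corrected reads it was not called. On unique reads the second CRYBA2 stood at 0.433 [0.369 to 0.506] of the control in HRAS, which passes the rule. The beta ratios furthest from 1 in HRAS were those of crybb1l1, at 0.383 [0.346 to 0.423] of the control, and of crybb1l3, at 0.349 [0.206 to 0.568] on only 26 reads in HRAS and 48 in the control, of which 7 in HRAS and 5 in the control were unique. The gene crybb1l1 had 15 RPKM in HRAS, 42.7 RPKM in NICD and 39 RPKM in the control, so HRAS stood apart from the other libraries. The cryba1l2 ratio in HRAS moved from 0.676 on corrected reads to 0.219 on 16 unique reads in HRAS and 48 in the control.

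Gamma M crystallins were lower than in the control in most members of both transgenic libraries. Of 23 with 50 reads in the pair, 6 were called lower in HRAS and 9 in NICD, and none was called higher. Over all genes tested, 4.14% were called lower in HRAS and 3.12% in NICD. The median log2 ratio over the 25 kept members was -0.63 in HRAS and -0.78 in NICD. In 21 of the 25 the control had the highest scaled level of the 3 libraries. No share over all genes is given for that count, and the 25 include similar copies that share reads, so it is a description only. The 3 most abundant gamma M genes were crygm2d4, crygm2d17 and crygm2d20. The gene crygm2d4 had 463 RPKM in HRAS, 430 RPKM in NICD and 565 RPKM in the control and was not called. The gene crygm2d20, with 324 RPKM in HRAS, 320 RPKM in NICD and 533 RPKM in the control, stood at 0.603 [0.587 to 0.619] and 0.594 [0.575 to 0.613] of the control in HRAS and NICD and was not called either.

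The gene crygm2d17 had 359 RPKM in HRAS, 273 RPKM in NICD and 725 RPKM in the control, which made it the most abundant crystallin of the control alone. It was called lower in HRAS, at 0.493 [0.479 to 0.506], and in NICD, at 0.372 [0.359 to 0.386]. On its unique reads, 4352 in HRAS, 1577 in NICD and 6305 in the control, it stood further from the control, at 0.444 [0.427 to 0.461] in HRAS and 0.296 [0.28 to 0.313] in NICD. The ratios furthest from 1 among gamma M genes with 100 reads or more in 1 of the pair were those of crygm2d11. It had 36.9 RPKM in HRAS, 38.4 RPKM in NICD and 134 RPKM in the control, which is 0.274 [0.256 to 0.294] of the control in HRAS and 0.284 [0.26 to 0.309] in NICD. Few of its reads were unique, 39 in HRAS, 34 in NICD and 111 in the control, and on these it was called lower in both as well, at 0.228 [0.153 to 0.328] in HRAS and 0.366 [0.239 to 0.536] in NICD.

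Among gamma M genes, those with few reads gave ratios far from 1. The gene crygm2f had 6 reads in HRAS, 17 in NICD and 59 in the control, a ratio of 0.0697 [0.0229 to 0.15] for HRAS and 0.35 [0.187 to 0.596] for NICD. The gene crygmxl1 had 38 reads in HRAS, 30 in NICD and 99 in the control, all unique, and was called lower in both, at 0.247 [0.164 to 0.359] in HRAS and 0.364 [0.231 to 0.547] in NICD. The gene crygm2d5 was called lower in both as well, at 0.413 in HRAS and 0.489 in NICD, but only 1, 1 and 4 of its reads in HRAS, NICD and control were unique. The gene crygm2d16 was called in HRAS alone, at 0.422 [0.395 to 0.451], and stood at 0.529 [0.491 to 0.57] in NICD. In NICD the calls also included crygm2d14, crygm2d15, crygm2d18 and crygm2d6, at 0.462 to 0.492 of the control. In HRAS the same 4 genes stood between 0.612 and 0.657 and were not called. On unique reads crygm2d14 and crygm2d15 were again called lower in NICD alone, at 0.461 and 0.436 of the control, and crygm2d6 had 1 unique read in all. On unique reads crygm2d18 was called lower in HRAS, at 0.487 [0.308 to 0.76], and not in NICD, at 0.514 [0.289 to 0.861].

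A few gamma M genes did not follow the rest. The gene crygm2d1 had 178 RPKM in HRAS, 187 RPKM in NICD and 155 RPKM in the control, slightly above the control in both, but only 11 of its reads in HRAS, 3 in NICD and 9 in the control were unique. The gene crygm2d2 stood at 0.865 [0.84 to 0.891] in HRAS and 1.06 [1.02 to 1.09] in NICD. The gene crygmx had 35.7 RPKM in HRAS, 78.8 RPKM in NICD and 55.6 RPKM in the control. It stood at 0.638 [0.589 to 0.69] of the control in HRAS and 1.4 [1.3 to 1.51] in NICD. The gene crygmxl2 had 188 RPKM in HRAS, 248 RPKM in NICD and 178 RPKM in the control, at 1.05 [1.01 to 1.09] and 1.38 [1.32 to 1.44] of the control in HRAS and NICD.

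By name, crygmx and crygmxl2 were not in the genome neighbourhood that holds the other gamma M genes. In the RefSeq table (assembly GRCz12tu), 34 genes with names in crygm or crygs form 1 neighbourhood with no more than 10 other protein-coding genes between neighbours, and 23 of the 25 measured gamma M genes are in it. The 2 counted as outside are crygmx and crygmxl2, because their names are not among the 34, and their own positions are not given here. In NICD against control the median log2 ratio was -0.87 over the 23 inside, of which 2, crygm2d1 and crygm2d2, lay above 1, while both genes outside lay above 1. On unique reads both genes outside stood at 1.18, with intervals that include 1, [0.886 to 1.58] for crygmx and [0.634 to 2.21] for crygmxl2. The neighbourhood holds similar copies that share reads, so the 23 are not independent measurements, and no test of this difference was made.

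CRYGN, a gamma N crystallin, was the only other gamma gene with enough reads. It had 240 RPKM in HRAS, 316 RPKM in NICD and 315 RPKM in the control, and all of its reads were unique. It stood at 0.756 [0.733 to 0.779] of the control in HRAS and at 0.99 [0.958 to 1.02] in NICD, where the interval included 1. Its ratio in NICD moved to the other side of 1 when libraries were scaled by their totals, at a log2 ratio of 0.002.

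The genes with names in crybg are described apart, because crybg1a and crybg1b are named after a human gene that carries beta and gamma crystallin domains and is not a lens structural protein. That reason does not cover crybgx, which is placed here by its name alone. Its longest transcript has 723 bases, against 3525 for crybg1a and 3425 for crybg1b. The gene crybg1a had 20.6 RPKM in HRAS, 12.1 RPKM in NICD and 13 RPKM in the control, a ratio of 1.58 [1.48 to 1.69] in HRAS, the highest of any member with 50 reads. The gene crybg1b had 5.65 RPKM in HRAS, 5.66 RPKM in NICD and 4.76 RPKM in the control and was not called. The gene crybgx had 5.79 RPKM in HRAS, 6.93 RPKM in NICD and 34.4 RPKM in the control. It was called lower in HRAS, at 0.167 [0.14 to 0.198], and in NICD, at 0.2 [0.161 to 0.244]. All of its reads were unique, 172 in HRAS, 110 in NICD and 657 in the control, so shared reads did not enter its ratio.

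The third comparison, HRAS against NICD, shares the driver and does not use the control. Of 37 crystallin genes with 50 reads in the pair, 6 were called lower in HRAS and 0 higher, while 6.19% of all 20856 genes tested were called lower and 5.15% higher. The called genes were CRYAA, CRYBA4, cryba1b, crybb1l1, crybb1l3 and crygmx, of which crybb1l3 rests on 26 reads in HRAS and 29 in NICD. The median log2 ratio over beta genes was -0.82. Of the 10 with 50 reads, 4 were called lower and all 10 lay below 1. CRYBA4 stood at 0.438 [0.419 to 0.459] of its NICD level in HRAS, crybb1l1 at 0.353 [0.319 to 0.391] and cryba1b at 0.469 [0.44 to 0.499]. On unique reads cryba1b stood at 0.507 [0.452 to 0.57] and crygmx at 0.577 [0.434 to 0.767], short of 2-fold. Gamma M genes had a median of -0.06 and 1 call among 22 genes, crygmx at 0.455 [0.422 to 0.491]. The summed gamma M reads in HRAS stood at 0.995 [0.986 to 1] of NICD on corrected reads and at 1.18 [1.15 to 1.21] on unique reads, and the summed beta reads at 0.591 [0.581 to 0.601] and 0.524 [0.51 to 0.539].

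Many crystallin genes are similar copies, and the share of unique reads shows how far a value of one gene can be told from its copies. The median unique share was 7.63% over the 25 gamma M genes, with 15 of them under 10%, and 21.6% over the 12 beta genes. Reads that match more than 1 transcript of the same gene are counted as non-unique too, and the share followed the number of transcripts. The 8 gamma M genes with 1 transcript had shares of 20.2% or more, so none of them was among the 15 under 10%. The 3 beta genes with 1 transcript, CRYBA4, cryba1l1 and CRYBB3, had only unique reads. A low share is therefore no measure of likeness between genes alone. Among members with at least 50 unique reads in the pair, 30 of 32 lay on the same side of 1 on unique as on corrected reads in HRAS against control, 29 of 31 in NICD against control and 28 of 31 in HRAS against NICD. In HRAS the exceptions were crygm5, at 0.852 on corrected and 1.28 on unique reads, and crygmxl2, at 1.05 and 0.944. In NICD they were cryba1l2, at 1.24 on corrected and 0.744 on unique reads, and crybb1l1, at 1.08 and 0.986. In HRAS against NICD they were crygm2d13, crygm2d18 and crygm2d20, of which crygm2d18 moved most, from 1.37 on corrected to 0.948 on unique reads. On unique reads 10 of 32 members were called lower and 0 higher in HRAS, where 4.02% of all genes were lower and 5.69% higher. In NICD 6 of 31 were called lower and 0 higher, where 2.91% of all genes were lower and 3.16% higher. In HRAS against NICD 3 of 31 were called lower and 0 higher, where 5.85% of all genes were lower and 4.66% higher.

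**Figure D4:**
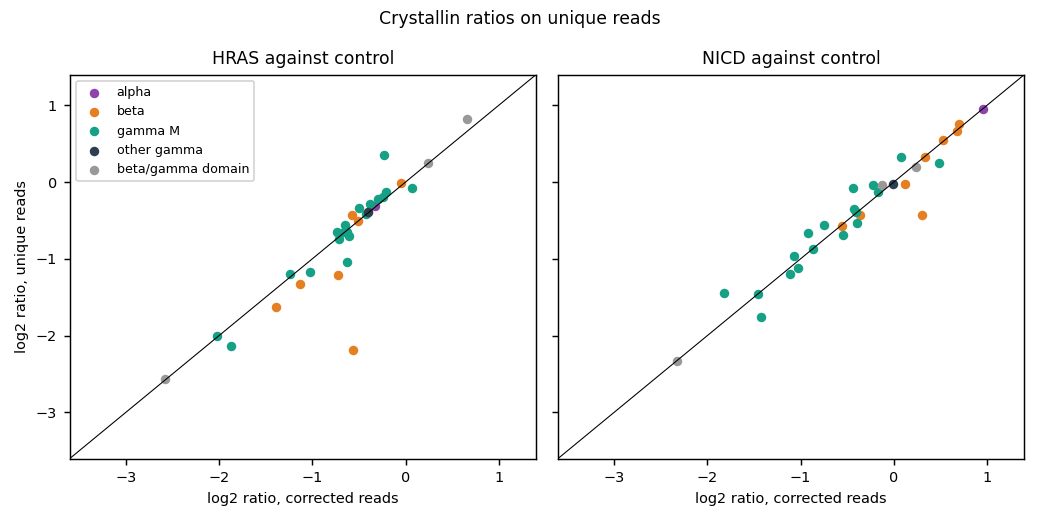
The log2 ratio of crystallin genes on unique reads (vertical) against that on corrected reads (horizontal), for the 32 members in HRAS against control and the 31 in NICD against control with at least 50 unique reads in the pair. Points on the diagonal have equal ratios, and cryba1l2 lies furthest below it in HRAS, at 0.219 on unique against 0.676 on corrected reads.

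Lens genes other than crystallins were read beside them, from a list of 37 symbols that matched 37 identifiers, 36 of them with at least 20 reads. They encode lens membrane proteins, cytoskeleton and transcription factors among others, several of which are also used in other tissues. In HRAS against control 3 of 33 with 50 reads were called lower and 0 higher, with a median log2 ratio of -0.25 over the 36. Over all genes tested, 4.14% were called lower and 6.09% higher. In NICD against control 0 of 32 were called lower and 1 higher, with a median of 0.16, where 3.12% of all genes were lower and 3.56% higher. The genes called lower in HRAS included the 2 identifiers named MIP, the lens water channel. MIP (ENSDARG00000037285) had 6.04 RPKM in HRAS, 13 RPKM in NICD and 14.6 RPKM in the control, at 0.411 [0.373 to 0.452] of the control in HRAS and 0.879 [0.801 to 0.963] in NICD. MIP (ENSDARG00000013963) stood at 0.32 [0.276 to 0.37] in HRAS and 0.975 [0.859 to 1.11] in NICD.

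Several other lens fibre genes lay at or above the control. BFSP1, a lens intermediate filament protein, stood at 0.999 [0.89 to 1.12] of the control in HRAS and 1.89 [1.69 to 2.13] in NICD. LIM2 (ENSDARG00000015445), a lens membrane protein, stood at 1.24 [1.15 to 1.34] in HRAS and 1.45 [1.33 to 1.58] in NICD, and lim2.3 at 1.67 [1.45 to 1.94] in HRAS and 1.94 [1.66 to 2.27] in NICD, though almost none of the lim2.3 reads were unique. On corrected reads the only gene of this list called higher was caprin2 in NICD against control, on 41 reads in NICD and 16 in the control. On unique reads, 14 in NICD and 4 in the control, it was not called, and HSF4, a heat shock transcription factor, was called higher in HRAS against control, at 2.19 [1.16 to 4.7]. In HRAS against control 16 of the 36 lay above 1 and 20 below, and over the 33 with 50 reads the median was -0.002.

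Genes of neighbouring eye tissues and of pigment cells also differed between the libraries. The photoreceptor genes, 18 identifiers that all had at least 20 reads, summed to 411.1 RPKM in HRAS, 573.6 RPKM in NICD and 2017 RPKM in the control. Of 16 with 50 reads, 15 were called lower in HRAS and 13 in NICD, with medians of -2.20 and -1.88, further from 0 than the crystallin medians. The gene guca1d had 0 reads in HRAS, 0 in NICD and 23 in the control. Pigment cell genes summed to 529.6 RPKM in HRAS, 574.7 RPKM in NICD and 745.7 RPKM in the control, with 3 of 13 called lower in HRAS and 1 in NICD. This list holds genes of melanocytes as well as of the pigment epithelium. In RNA of whole larvae its sum is therefore not a level of eye tissue alone. Its most abundant gene, TYRP1 (ENSDARG00000056151), had 180 RPKM in HRAS, 182 RPKM in NICD and 247 RPKM in the control. Other retina genes summed to 86.56 RPKM in HRAS, 97.82 RPKM in NICD and 128.7 RPKM in the control, with 2 of 11 called lower in HRAS and 0 in NICD. Beside these counts, 4.14% of all genes tested were called lower in HRAS against control and 3.12% in NICD against control. Each of these sums was highest in the control, as was the summed crystallin level. The sum of the other lens genes was not, at 313.6 RPKM in HRAS, 368.3 RPKM in NICD and 307.5 RPKM in the control, where it was lowest. Its HRAS and control values lay close together. Gene by gene, 15 of the 36 other lens genes had intervals below 1 in HRAS against control and 11 above. The part that the amount or stage of eye tissue has in the crystallin ratios was not tested.

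**Figure D5:**
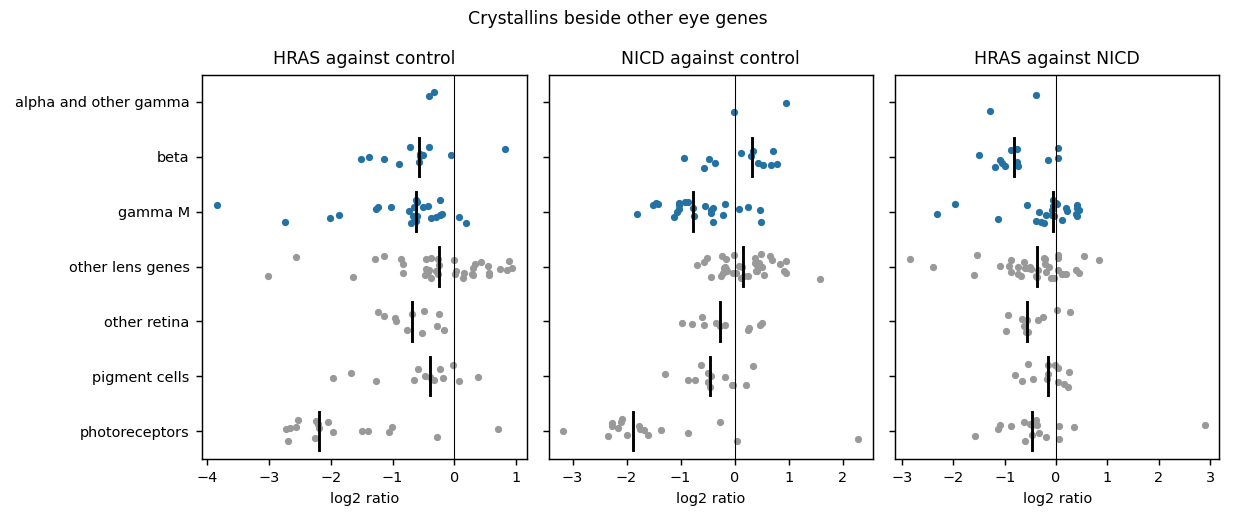
The log2 ratio of crystallin genes (blue) and of other lens, retina, pigment cell and photoreceptor genes (grey) with at least 20 reads, in the 3 comparisons, with 1 point per gene and a black bar at the median over the group (none for the row of CRYAA and CRYGN). Genes with 0 reads in a library of the pair have no point, and the crybg genes are not drawn. Of these, crybgx lay at -2.58 in HRAS and -2.32 in NICD against control. Photoreceptor medians of -2.20 in HRAS and -1.88 in NICD lie further from 0 than those of beta genes, at -0.57 and 0.32, and of gamma M genes, at -0.63 and -0.78.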

How the data were processed

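RNA of whole larvae was sequenced in 3 libraries. Illumina TruSeq libraries were made from 10 ug of total RNA, per the labels' protocols. Per the series' design text, reads came from an Illumina HiSeq 2000 and were mapped by CLC bio Assembly Cell 3.2 against zebrafish cDNAs (Zv9, Ensembl release 63), and the submitters' processing notes name CASAVA 1.8. The sources used here state neither mapping parameters nor strand. The authors deposited counts of unique and non-unique reads per gene, an expected count (corrected total reads, whole numbers) and RPKM, per the file headers. RPKM recomputed from library totals, corrected reads and the length of the longest transcript differed by at most 0.267% in genes with at least 200 reads.

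Corrected reads were scaled with TMM (edgeR 4.0.16, R 4.3.3) at factors of 1 (HRAS), 1.006 (NICD) and 0.9944 (control). Ratios had 0.5 reads added to each library, and were computed over all genes. Intervals came from scipy 1.17.1 with Python 3.11.15. A floor of 3 reads is 0.073 CPM in HRAS, 0.136 CPM in NICD and 0.114 CPM in the control. Reads carry no molecular identifiers and are no independent molecules, so intervals and floors cover counting error only.

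The members, the gene lists and the tests were chosen with earlier results of these data known. Genes described are every alpha crystallin, in each other group the 3 with the highest mean RPKM and the 3 with the largest ratio per comparison among those reaching 100 reads in a library, and up to 4 of each other list. Further members were named after their values were seen, to account for calls and exceptions. After the tables were seen, list symbols without an exact match were matched to the capital name without its fish suffix. Of 23 photoreceptor symbols 5 were unmatched, and of 12 other retina symbols 1. Alternatives were scaling by totals, by upper quartile or with DESeq2 1.42.0, scaling without crystallins or without the 20 most abundant genes, unique reads, RPKM, other minimums, 5 reads added, thinning and other fold limits. Single values of some listed genes are not reported here.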

Additional observations from a re-analysis of the deposited data

Results flagged for a closer look

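In 7 crystallin genes, 4 of them beta crystallins, the counting intervals lay below 1 in HRAS against control and above 1 in NICD against control. That is 16.7% of the 42 members. The rule took intervals on opposite sides of 1 in either order, and all 7 members had the order above. Of all 23330 genes with at least 20 reads, 6.89% were counted as opposite, and that share is not divided by order. Counting intervals narrow as reads increase, so both shares depend on read depth, and they were not compared at like depth. The gene crygm2d2, with 24754 reads in all, met the condition at only 0.865 and 1.06 of the control. On unique reads 4 of the 7 met it, and CRYBB1, crygmx and crygm2d2 did not. The difference between both effects was not tested, since each group is 1 library. The direct ratio of HRAS to NICD is given for each gene as a description. A gene below the control in HRAS and above it in NICD must have a ratio under 1. For these 7 the side of 1 was thus fixed by the rule that picked them, and the ratio is no separate support. That ratio was 0.412 for CRYAA, 0.438 for CRYBA4, 0.505 for CRYBB1, 0.469 for cryba1b and 0.6 for cryba1l1. Among gamma M genes it was 0.455 for crygmx and 0.818 for crygm2d2.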

How the results depend on the processing

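No paired analysis was possible because each group is 1 library, and no library could be left out. Of the 26 calls of single genes over the 3 comparisons, all 26 were also made under each of the 5 other scalings, with 5 reads added and with no minimum, and 25 with RPKM. With thinning 25 were made again, and with a minimum of 200 reads the 20 that could still be tested were made again. On unique reads 16 were made again, 3 were not, and the others had too few unique reads. The count of members called lower on unique reads was 6 in NICD against control and 3 in HRAS against NICD. With a 1.5-fold limit, 19 were lower and 1 higher in HRAS against control, 13 lower and 3 higher in NICD against control, and 11 lower and 1 higher in HRAS against NICD. At that limit 10.9% of all genes were lower and 13% higher in HRAS against control, 7.86% and 10.6% in NICD against control, and 14.2% and 11.1% in HRAS against NICD. With a 4-fold limit, 3 were lower in HRAS against control, 1 in NICD against control and 0 in HRAS against NICD. No share of all genes is given for this limit or for the counts with no minimum that follow, so these counts are descriptions only. With no minimum, where members under 20 reads were counted too, 11 were lower in HRAS against control and 12 in NICD against control. In HRAS against NICD 8 were lower and 1 higher. Among the 42 members with at least 20 reads, 5 calls were gained, of crygm2a, crygm2e and crygm2f. The log2 ratio of the crystallin sum in HRAS against control was -0.53 with DESeq2 factors, -0.53 with upper quartile, -0.50 without the 20 most abundant genes, -0.59 on unique reads and -0.54 with RPKM, beside -0.51. In NICD against control it was -0.32 with totals, -0.36 with DESeq2 factors, -0.37 with upper quartile, -0.32 without the 20 most abundant genes and -0.36 with RPKM, beside -0.34. In HRAS against NICD it was -0.16 with upper quartile and -0.25 on unique reads, beside -0.17. Over members with 20 unique reads the median in HRAS against control was -0.42 over all members and -0.42 over beta genes, and the gamma M median in NICD was -0.67. Over members with 50 unique reads in the pair these were -0.53, -0.86 (4 of 8 beta genes called lower) and -0.61. That gamma M median was -0.54 with a minimum of 200 reads and -0.69 with thinning, beside -0.78. Scaling by totals put CRYGN in NICD against control at 0.002 and crybg1b in HRAS against NICD at -0.001, both across 1. The cause of these shifts was not tested.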
